A study of Mus musculus with 2 samples.

Results

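Nucleotide synthesis and one-carbon genes encode the enzymes that build, recycle and interconvert purine and pyrimidine nucleotides, together with the folate enzymes that feed carbon units into them. Here they are a list of 36 genes, chosen by name from purine synthesis, pyrimidine synthesis, salvage and the folate cycle, and matched by symbol to gene identifiers through the GENCODE M21 annotation of mouse mm10. All 36 symbols matched, out of 21474 protein-coding genes with a row in the deposited tables. The libraries were total RNA-seq of granulocyte-monocyte progenitors, bone marrow precursors of neutrophils and monocytes, taken as primary cells from adult male C57BL/6J mice aged 5 to 6 weeks. Each library came from a pool of 100 cells with added spike-in RNA, and no treatment or altered allele is given in the labels. There is 1 group of 2 libraries, called replicate 1 and replicate 2 after their biological replicate numbers. Both carry the same donor identifier, and whether they came from separate animals is not given in the labels, so each SD (n = 2) measures how far these libraries lie apart, and that distance may be technical. With 1 group there is no comparison of conditions and no test, and the markers used to sort the cells were not given in the sources used here.

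Purine nucleotides are assembled atom by atom on an activated ribose, phosphoribosyl pyrophosphate, until inosine monophosphate is reached, and that product is then turned into adenine or guanine nucleotides. The pyrimidine ring is instead closed first and joined to the same activated ribose afterwards, while salvage enzymes reuse free bases and nucleosides. Folate carries the carbon units that come mainly from serine and are used in purine ring assembly and in thymidylate synthesis, so cells that copy their DNA draw on every branch.

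The libraries held 40509954 and 35675702 expected counts (estimated read counts) in replicates 1 and 2. All 11 granulocyte-monocyte progenitor markers had 10 TPM (a transcript abundance scaled per length and to a fixed total per library) or more in both libraries, with Mpo, myeloperoxidase, at 6332 and 6602 TPM. Summed over their lists, erythroid, megakaryocyte, macrophage and stromal markers ranged from 0 to 10.6 TPM, and Cd79a, Pax5, Ebf1, Cd3e, Cd3g, Col1a1, Col1a2 and Cxcl12 were at 0 in both. The T and natural killer list summed to 273 and 261 TPM, nearly all of it Nkg7. The mature neutrophil list differed between the libraries, at 86.3 TPM in replicate 1 and 5.20 in replicate 2, with 4 of its 5 genes higher in replicate 1. All 5 proliferation markers exceeded 10 TPM in both libraries, and they summed to 958 and 906 TPM. In such bulk pools, fewer cells of a type and less RNA per cell cannot be told apart, and the part of these marker differences in the values below was not tested.

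All 36 genes were present in both libraries at 10 TPM or more. That level was reached in both libraries by 26.1% of protein-coding genes, and 1 TPM by 45.6%. Their median over mean TPM was 34.2, against 0.55 for all protein-coding genes and 13.3 for the 10278 such genes with 1 TPM or more on average. The lowest, Dhodh, stood at percentile 75.2 of protein-coding genes and the highest, Nme2, at percentile 99.1, where it ranked 192. Of these 36 genes 6, namely Nme2, Impdh2, Dut, Paics, Hprt and Dtymk, had 100 TPM or more in both libraries, a level that 2.94% of protein-coding genes reached on average. Together the 36 genes made up 0.433% of protein-coding TPM in replicate 1 and 0.460% in replicate 2. Their expected counts ran from 295 to 7817 per gene and library, far above the 3 counts taken as the limit that a count of 0 allows.

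**Figure D1:**
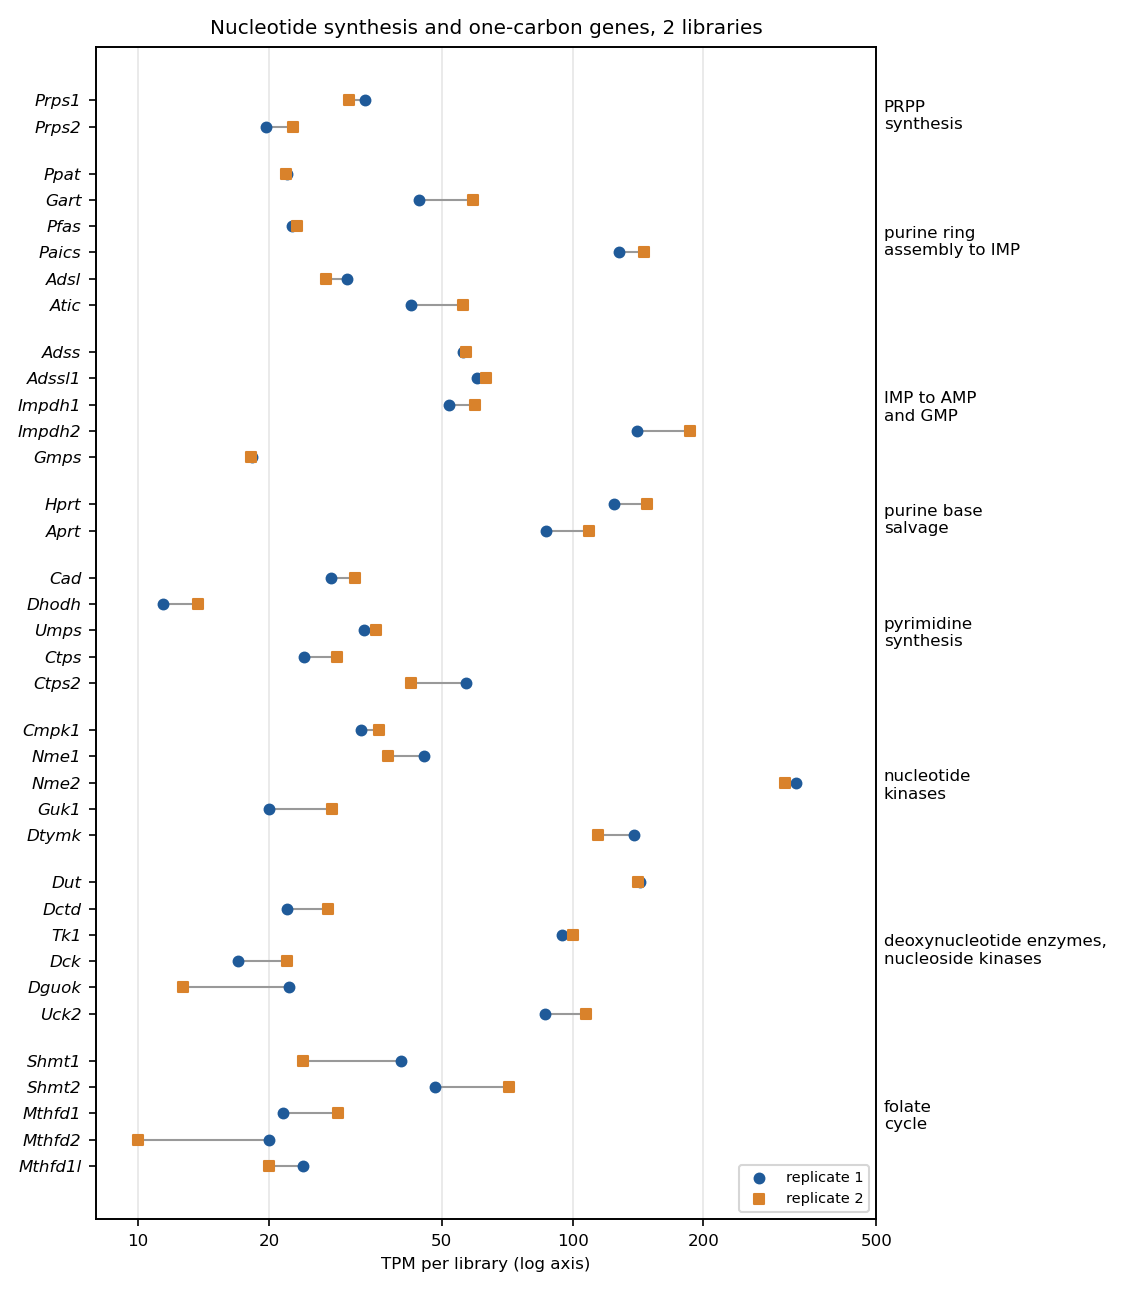
Level of each of the 36 genes in TPM on a log axis, with replicate 1 as circles, replicate 2 as squares, a line joining the 2 libraries and genes grouped by role. Nme2 stands alone above 300 TPM in both libraries, and Mthfd2, Dguok and Shmt1 have the longest lines.

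The activated ribose used in purine assembly, base salvage and pyrimidine synthesis is made by the phosphoribosyl pyrophosphate synthetases. Prps1 had 33.4 TPM in replicate 1 and 30.6 in replicate 2 (32.0 ± 1.94, SD, n = 2). Its X-linked relative Prps2 had 19.7 and 22.7 TPM (21.2 ± 2.11). Per length, Prps1 was thus the higher of these in each library, although CPM (counts scaled to the library total but not per length) gave the opposite order, with Prps1 at 43.6 and 40.7 and Prps2 at 47.0 and 59.1.

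Of the 6 enzymes that assemble the purine ring, Paics was the most abundant and Ppat, which catalyses the committed first step, the least. Ppat had 22.03 and 21.87 TPM (21.95 ± 0.113), the second smallest SD among the 36 genes. Gart, which carries several steps of the pathway on one protein, had 44.3 and 59.1 TPM (51.7 ± 10.5). Pfas, which adds the amidine nitrogen, had 22.6 and 23.2 TPM (22.9 ± 0.467). Paics, which joins a carboxylase and a synthetase in one protein, had 128 and 146 TPM (137 ± 13.0). Adsl, the lyase used once in ring assembly and again on the way to adenosine monophosphate, had 30.2 and 27.0 TPM (28.6 ± 2.25). Atic, which performs the closing steps to inosine monophosphate and takes a formyl group from folate, had 42.5 and 56.0 TPM (49.3 ± 9.50). Summed, the 6 genes came to 289 TPM in replicate 1 and 333 in replicate 2, with 4 of them higher in replicate 2.

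Ppat and Paics lie head to head on chromosome 5 (mm10). Ppat runs on the minus strand from 76913249 to 76951578, and Paics on the plus strand from 76951307 to 76967509, so that their exons share 272 bases. Paics exceeded Ppat 5.79-fold in replicate 1 and 6.67-fold in replicate 2 by TPM. Whether counting used the strand is not given in the sources used here, and reads from the shared bases cannot then be assigned to either gene with certainty. Expected counts were whole for both genes, at 2478 and 2116 for Ppat and 7753 and 7817 for Paics. How reads of the shared bases were assigned was not tested.

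Inosine monophosphate is drawn off towards adenine by the adenylosuccinate synthetases and towards guanine by inosine monophosphate dehydrogenase, the rate-limiting enzyme of guanine nucleotide synthesis. Adss had 56.0 and 56.8 TPM (56.4 ± 0.587). Adssl1, the isozyme best known from muscle, had 60.2 and 63.1 TPM (61.7 ± 2.05), so the muscle-type gene was at no lower level than Adss per length. In CPM the order was the opposite, at 102 and 104 for Adss against 71.3 and 75.8 for Adssl1.

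Impdh2, the dehydrogenase isozyme usually linked to proliferating cells, had 140 and 187 TPM (163 ± 32.7). Impdh1 had 52.1 and 59.7 TPM (55.9 ± 5.40), which left Impdh2 2.93-fold higher by mean TPM and higher in each library. Gmps, which aminates the dehydrogenase product to guanosine monophosphate, had 18.3 and 18.2 TPM (18.2 ± 0.0778), the smallest SD of the list. Along the guanine branch the dehydrogenase genes were thus higher per length than the gene for the step after them, although Gmps was counted over a long transcript, of 7945 effective bases in replicate 1, and reached 105 and 106 CPM.

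The purine base salvage enzymes attach activated ribose to free bases. Hprt, which reuses hypoxanthine and guanine, had 124 and 148 TPM (136 ± 16.8). Aprt, which reuses adenine, had 86.7 and 109 TPM (97.8 ± 15.8). Both were higher in replicate 2, and both stood above 5 of the 6 ring assembly genes in mean TPM, the exception being Paics. In mean CPM Hprt kept that place, at 113, whereas Aprt, at 50.5, was below all 6.

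The pyrimidine synthesis genes were lower, between 12.6 and 49.6 TPM on average. Cad, the large protein that carries the opening steps, had 27.7 and 31.6 TPM (29.7 ± 2.75). Dhodh, the mitochondrial enzyme that oxidises dihydroorotate and hands electrons to the respiratory chain, was the lowest of all 36 genes, at 11.4 and 13.7 TPM (12.6 ± 1.62). Umps, which adds the ribose and yields uridine monophosphate, had 33.1 and 35.3 TPM (34.2 ± 1.53). The last step of the branch, from uridine to cytidine triphosphate, is shared by a pair of isozymes. Ctps had 24.1 and 28.6 TPM (26.4 ± 3.20). Ctps2 had 56.8 and 42.4 TPM (49.6 ± 10.2) and was higher than Ctps in each library. That order held per length only, since Ctps had 41.6 and 40.1 CPM and Ctps2 41.1 and 37.8 CPM. Of the Ctps2 level, 42.9 and 22.3 TPM were on Ctps2-203, a transcript of 741 bases. Each other Ctps2 transcript was below Ctps-201, which had 21.9 and 20.1 TPM.

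Nucleotide kinases raise monophosphates to diphosphates and triphosphates. Nme2, a nucleoside diphosphate kinase subunit, had the highest level of the 36 genes per length, at 326 and 308 TPM (317 ± 12.6), although Paics, Impdh2 and Uck2 were above it in mean CPM. Nme1, its partner subunit, had 45.4 and 37.7 TPM (41.5 ± 5.47), so Nme2 was 7.64-fold higher by mean TPM. In CPM the gap was smaller, at 138 in both libraries for Nme2 and 71.3 and 80.01 for Nme1. They are neighbours on the minus strand of chromosome 11, with Nme2 from 93949814 to 93956259 and Nme1 from 93956979 to 93968521. A readthrough gene, Gm20390, shares 573 exon bases with Nme2 and 418 with Nme1 on that strand, and was given 53.9 and 86.1 TPM of its own. Expected counts of Nme1 and Nme2 were not whole, as for Prps1, Impdh2 and Cmpk1, whereas those of the other 31 genes were whole in both libraries within 0.005 of a count. The division of reads among Nme1, Nme2 and Gm20390 is therefore uncertain.

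The monophosphate kinases covered a wide range. Dtymk, thymidylate kinase, which every thymidine nucleotide passes through before entering DNA, had 138 and 114 TPM (126 ± 16.9). Cmpk1, which phosphorylates cytidine and uridine monophosphates, had 32.6 and 35.9 TPM (34.3 ± 2.34). Guk1, guanylate kinase, had 20.0 and 27.9 TPM (23.97 ± 5.55). Per length, Dtymk was above both in each library, while in CPM Cmpk1 was above Dtymk in replicate 2, at 73.6 against 69.3.

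Among genes of deoxynucleotide supply, Dut and Tk1 were high and the deoxynucleoside kinases of broader range low. Dut, which destroys deoxyuridine triphosphate and so keeps uracil out of DNA, had 143 and 141 TPM (142 ± 1.24). Tk1, the cytosolic thymidine kinase whose level follows S phase, had 94.5 and 100 TPM (97.3 ± 3.87). Dctd, which deaminates deoxycytidine monophosphate to the substrate of thymidylate synthase, had 22.1 and 27.4 TPM (24.7 ± 3.75). Dck, the cytosolic kinase that activates deoxycytidine and several nucleoside drugs, had 16.9 and 22.04 TPM (19.5 ± 3.61). Dguok, the mitochondrial deoxyguanosine kinase, had 22.3 and 12.7 TPM (17.5 ± 6.78). The order of Dck and Dguok thus differed between the libraries by TPM, while in CPM Dck was higher in both. Uck2, a uridine and cytidine kinase, had 86.2 and 107 TPM (96.9 ± 15.01).

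The folate cycle genes included both ends of the range of log2 differences between libraries, Mthfd2 and Shmt2. Shmt2, the mitochondrial serine hydroxymethyltransferase that splits serine into glycine and a folate-bound carbon, had 48.2 and 71.6 TPM (59.9 ± 16.5). Shmt1, its cytosolic relative, had 40.2 and 23.98 TPM (32.1 ± 11.5), and was below Shmt2 in each library. Mthfd2, the mitochondrial dehydrogenase and cyclohydrolase of the next steps, had 20.02 and 10.01 TPM (15.02 ± 7.08). Mthfd1l, which releases formate inside mitochondria, had 23.9 and 20.1 TPM (21.98 ± 2.72). Mthfd1, the cytosolic protein that takes formate up again, had 21.5 and 28.9 TPM (25.2 ± 5.20), so that the order of Mthfd1 and Mthfd1l differed between the libraries. The sum over the 5 genes was nearly equal, at 154 TPM in both replicates.

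**Figure D2:**
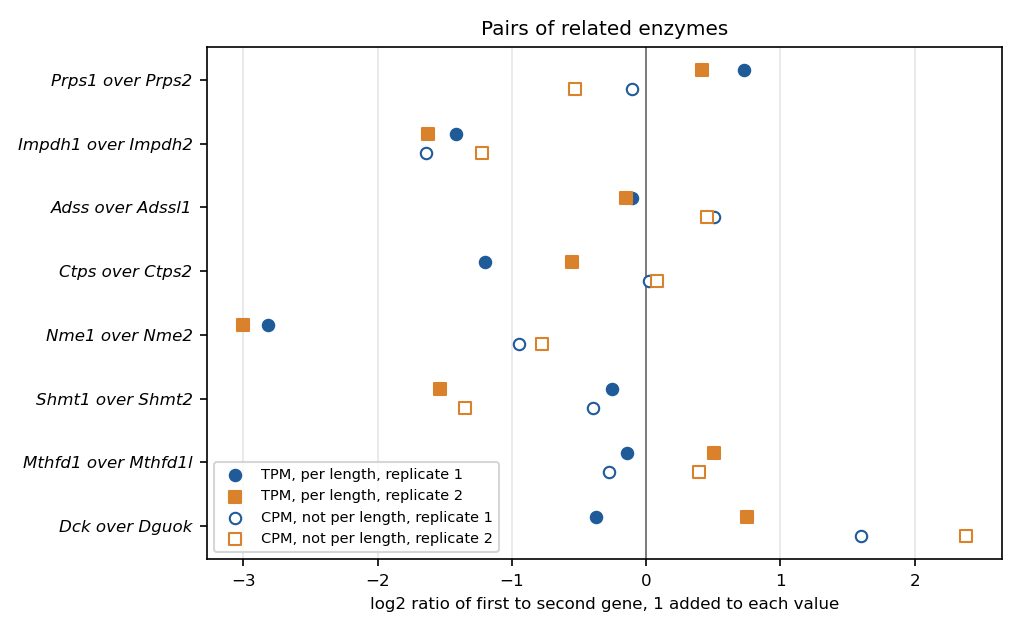
Log2 ratio of the first to the second gene of each of 8 pairs of related enzymes, 1 added to each value, from TPM (filled) and from CPM (open), with replicate 1 as circles and replicate 2 as squares. By TPM 6 pairs keep 1 order in both libraries, Nme1 over Nme2 lies lowest, and for Prps1, Adss and Ctps the open points lie on the other side of 0.

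Set out as log2 ratios, 6 of the 8 pairs of related enzymes had the same order in both libraries. The ratio of Nme1 to Nme2 was -2.82 and -3.00, and that of Impdh1 to Impdh2 was -1.41 and -1.63. The ratio of Ctps to Ctps2 was -1.20 and -0.55, and that of Shmt1 to Shmt2 moved most among these 6, from -0.26 to -1.54. The ratio of Prps1 to Prps2 was 0.73 and 0.42. For Adss and Adssl1 it was -0.10 and -0.15, a gap smaller than that of any other pair in replicate 1. Mthfd1 over Mthfd1l changed sign, at -0.15 and 0.50, as did Dck over Dguok, at -0.38 and 0.75. The mitochondrial member was thus the higher in both libraries only for Shmt2 among the cytosolic and mitochondrial pairs.

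No gene of the 36 was over 2-fold apart between the libraries on the log2(TPM + 1) scale. Over all protein-coding genes with 1 TPM or more on average, 7.52% were, and with 10 TPM or more 3.13%. Differences here are replicate 2 minus replicate 1, and they ran from -0.93 for Mthfd2 to 0.56 for Shmt2. The median size of the difference was 0.24, against 0.23 over protein-coding genes with 10 TPM or more. At a looser fold of 1.5, 3 genes were apart, Mthfd2, Dguok and Shmt1, and each was higher in replicate 1. Among protein-coding genes with 10 TPM or more on average, 15.05% were over 1.5-fold apart.

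Mthfd2 lies on the minus strand of chromosome 6 from 83305691 to 83325908 and had 935 and 506 expected counts. Dguok, on the same strand of that chromosome from 83480217 to 83506969, had 453 and 295. Shmt1, on the minus strand of chromosome 11 from 60788104 to 60811718, had 2299 and 1562. For each of the 3 genes the deposited intervals of the libraries did not overlap, from 18.0 to 21.4 TPM against 9.12 to 11.1 for Mthfd2. The same held for 59.8% of protein-coding genes with 10 TPM or more. These 3 genes were picked by their TPM difference, so the intervals add no support to it.

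Replicate 2 was the higher library for 23 of the 36 genes, a direction shared by 54.3% of protein-coding genes with 10 TPM or more. The median difference of the 36 genes was 0.11, against 0.04 over protein-coding genes with 1 TPM or more. That balance depended on scaling. With TMM or DESeq2 factors 18 genes were higher in each library, and with spike-in scaling 35 were higher in replicate 2 (Mthfd2 the exception), since the spike-ins had 4831 counts in replicate 1 and 2740 in replicate 2. Spike-in scaling moved the median of protein-coding genes with 1 TPM or more by 0.64, to 0.68, and the median of the 36 genes then lay 0.02 above it. The deposited intervals around each TPM estimate, whose level is not stated, did not overlap between the libraries for 21 of the 36 genes, against 59.8% of protein-coding genes with 10 TPM or more.

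**Figure D3:**
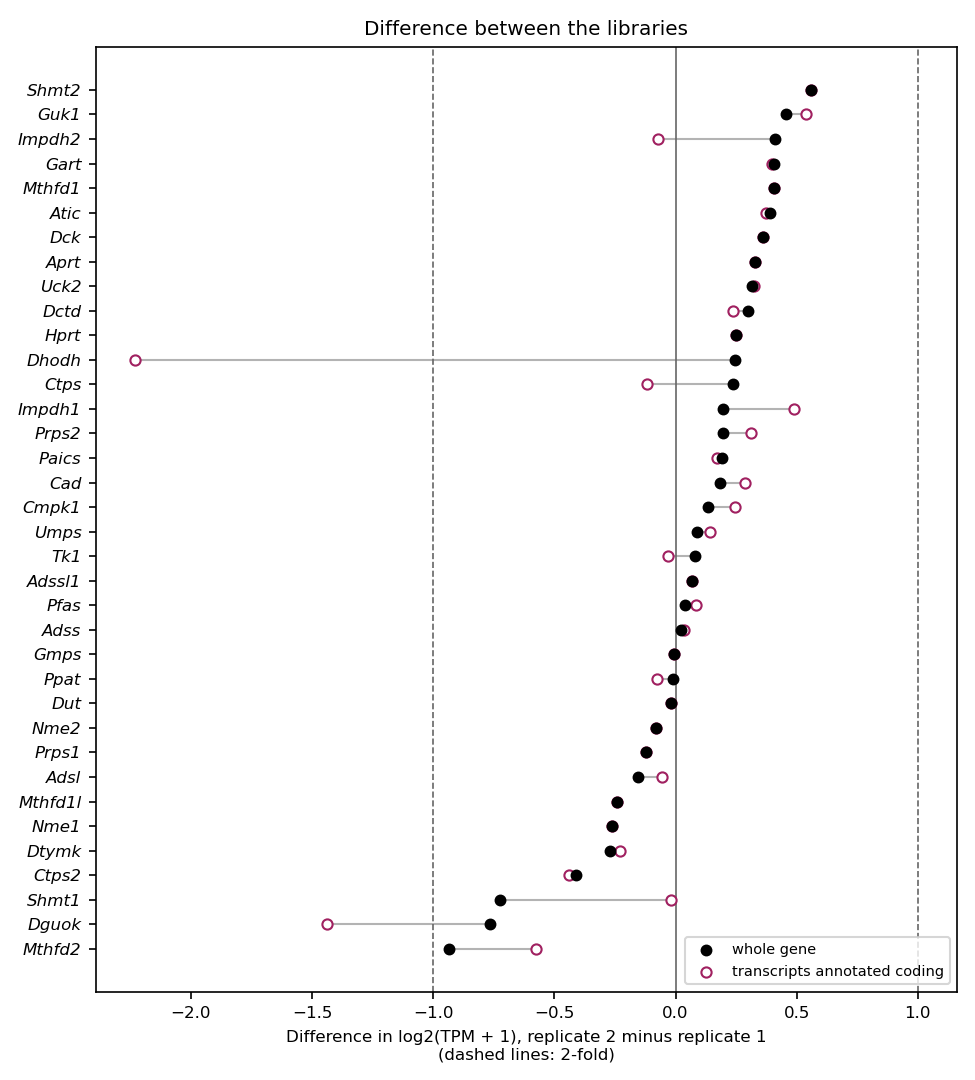
Difference in log2(TPM + 1), replicate 2 minus replicate 1, for each of the 36 genes, from the whole gene (filled) and from its transcripts annotated as protein-coding (open), with dashed lines at 2-fold. All filled points lie within 2-fold, the open points of Impdh2 and Shmt1 lie near 0, and those of Dhodh and Dguok lie beyond 2-fold, that of Dhodh with a transcript without an M21 entry counted as not coding.

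A gene's TPM sums over its transcripts, and in total RNA these include transcripts with a retained intron and others annotated as not coding for protein. For 32 of the 36 genes the leading transcript, the one with the largest share of the gene's TPM, was the same in both libraries. Over protein-coding genes with 10 TPM or more in both libraries, the leading transcript differed for 19.9%. It differed here for 4 genes, Dhodh, Dtymk, Dguok and Uck2. In 34 of the 36 genes the leading transcript was annotated as protein-coding in both libraries, a count without a share over all protein-coding genes beside it. Transcripts without an entry in M21 were counted as not coding. In all, 9 genes had under 80% of their mean TPM on transcripts annotated as protein-coding, where 35% of the same background did.

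Impdh2 showed how this bears on a level. Its protein-coding transcripts had 136 TPM in replicate 1 and 129 in replicate 2, while its other transcripts, all with a retained intron, had 4.79 and 57.8 TPM. In CPM the gene was at 167 in both libraries. Its effective length, the length by which TPM is scaled, was 1643 bases in replicate 1 and 1220 in replicate 2. The higher Impdh2 level of replicate 2 was therefore carried by short transcripts with a retained intron and was absent from the coding transcripts.

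Shmt1 gave a like picture in the other direction. Its coding transcript Shmt1-201 had 20.97 and 20.7 TPM, and its transcripts that do not code for protein had 19.3 and 3.28. Most of that was a processed transcript with 13.7 TPM in replicate 1 and 0 in replicate 2. An exon of Shmt1 shares 184 bases with Smcr8 on the opposite strand, which had 13.9 and 17.7 TPM.

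Several genes of DNA synthesis and ring assembly had a steady mixture. Tk1 had 42.7 and 41.8 TPM on its coding transcript Tk1-201, and 51.9 and 58.2 TPM on transcripts with a retained intron. Pfas had 8.89 and 9.50 TPM on coding transcripts, which was 39.4% and 40.9% of the gene. Retained-intron transcripts held the rest of Pfas, so its coding level was below that of Ppat. Cad had 63.1% and 68.2% of its TPM on coding transcripts, and the remainder on transcripts without an entry in M21.

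Dhodh, Dguok and Dtymk changed their leading transcript. Dhodh-201 held 71.3% of Dhodh in replicate 1 and 0% in replicate 2, where a transcript without an entry in M21 held 76.4%. Dguok-201, which codes for protein, led in replicate 1 with 48.6%, and Dguok-203, annotated for nonsense-mediated decay, led in replicate 2 with 42.5%. The coding transcripts of Dguok had 14.1 and 4.58 TPM, with 295 counts for the whole gene in replicate 2. Dtymk was led by Dtymk-202 at 38.9% in replicate 1 and by Dtymk-201 at 42.7% in replicate 2, both coding. Uck2 was led by Uck2-201 at 37.6% and then by Uck2-202 at 33.7%, again both coding.

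Some genes that kept their leading transcript still had other shares in the libraries. Dctd-201 held 77.1% of Dctd in replicate 1 and 39.4% in replicate 2, where another coding transcript, at 0 in replicate 1, held 34.5%. Ctps2-203 held 75.6% and 52.6% of Ctps2, and the coding share of Ctps was 90.9% and 70.2%. Nme1-201 held 30.9% of Nme1 in replicate 1 and 0% in replicate 2. Gmps, Hprt, Aprt, Dck, Shmt2 and Mthfd1 had 1 transcript each in the tables.

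Restricted to coding transcripts, an alternative chosen after seeing the data, 2 genes were over 2-fold apart, Dhodh at -2.23 and Dguok at -1.44, where 8.37% of protein-coding genes with 1 TPM or more on coding transcripts were. The Dhodh value rests on the annotation, since the transcript without an M21 entry, counted here as not coding, had 0.14 TPM in replicate 1 and 10.5 in replicate 2, while the whole gene was at 11.4 and 13.7 TPM. Mthfd2 had 15.4 and 10.01 TPM on coding transcripts, a smaller gap than for the whole gene, with the other 4.60 TPM of replicate 1 on a retained-intron transcript.

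**Figure D4:**
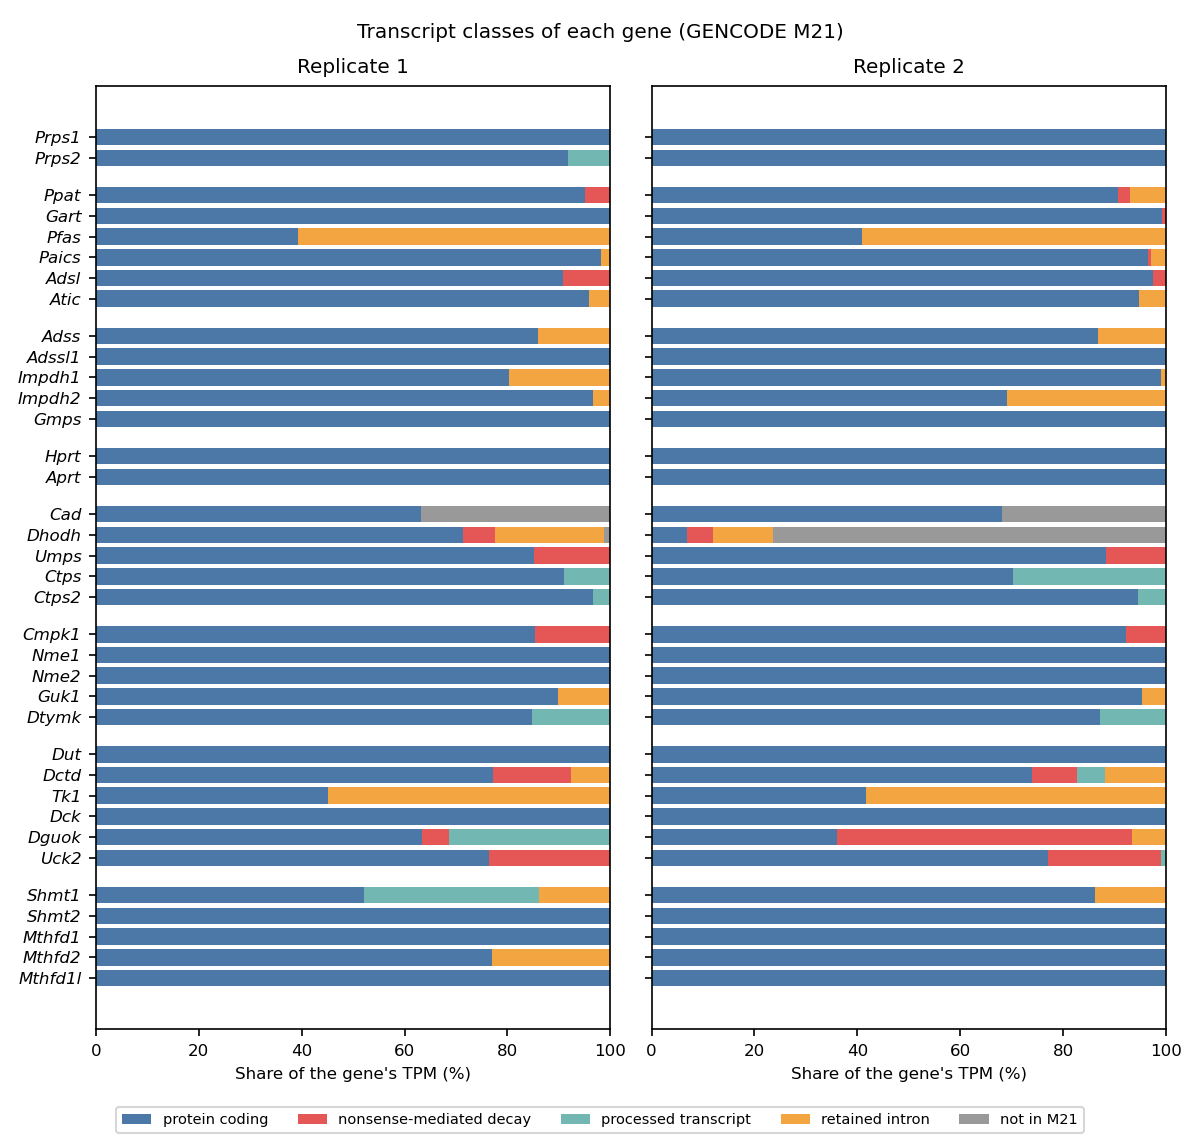
Share of each gene's TPM, in percent, on transcripts annotated in GENCODE M21 as protein coding, nonsense-mediated decay, processed transcript or retained intron, or absent from M21, in replicate 1 (left) and replicate 2 (right). Pfas and Tk1 are mostly retained intron in both libraries, while Dhodh, Dguok, Impdh2 and Shmt1 differ between them.

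Exons of 13 of the 36 genes overlapped an exon of another gene, in 10 cases on the opposite strand. No share over all protein-coding genes stands beside these counts, so they do not set these genes apart. Apart from the overlaps above, partners included Ndufaf3 at Impdh2 over 48 bases, with 20.98 and 18.9 TPM. Afmid overlapped Tk1 over 83 bases, with 4.28 and 3.59 TPM. Gm15964, antisense to Gart over 1014 bases, had 1.08 and 0.18 TPM. Each of these partners was lower than the gene it overlapped in both libraries.

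Start-site sequence was examined for motifs known from growth and replication genes, in RefSeq promoter windows of GRCm38.p6 that run from 250 bases before to 50 bases after each start. A window was given for 34 of the 36 genes, all but Dhodh and Pfas. The E-box CACGTG, the core sequence read by the MYC and MAX pair and by USF factors, was searched on both strands, which for this palindrome are the same. It was in windows of 5 genes, 14.7% of 34, against 8.09% of 27025 genes. Atic, Dtymk, Impdh2, Nme1 and Paics held it. These 26-base stretches are shown because they place the match in each gene, read 5′ to 3′ on the gene's strand with the E-box in capitals, and Nme1 has 2 start sites with 1 match each.
Atic, chr1:71557139-71557164, plus strand: acctcggggtCACGTGgggtcgacac
Dtymk, chr1:93802067-93802092, minus strand: ctcgaacttcCACGTGaccagagcct
Impdh2, chr9:108560316-108560341, plus strand: gctcgataagCACGTGgttacccagc
Nme1, chr11:93968039-93968064, minus strand: cttgatacgcCACGTGggctcgcctt
Nme1, chr11:93968275-93968300, minus strand: tgcggggaacCACGTGaggccgggga
Paics, chr5:76951089-76951114, plus strand: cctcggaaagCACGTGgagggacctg

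The match lay 7 bases before the start in Atic, 110 in Impdh2, 148 in Dtymk and 203 in Paics. In Nme1 the matches lay 29 and 18 bases before their starts. These are RefSeq starts, and M21 places some of the matches inside the genes. By M21 the Impdh2 match and both Nme1 matches lay within the span of their gene, and the Atic match overlapped the gene's start. The sequence before the RefSeq starts held annotated exons of Atic, of Impdh2 and, at Nme1, of Nme1 and Gm20390. The sequence before the Paics start holds an exon of Ppat, so the Paics match lies within the span of Ppat as well. The 250 bases before the Dtymk start, which hold no annotated exon, are shown as an example of a window with both an E-box and a CCAAT box, here read as ATTGG, with both in capitals. Atic, Impdh2 and Paics also held both motifs.
Dtymk, chr1:93801935-93802184, minus strand: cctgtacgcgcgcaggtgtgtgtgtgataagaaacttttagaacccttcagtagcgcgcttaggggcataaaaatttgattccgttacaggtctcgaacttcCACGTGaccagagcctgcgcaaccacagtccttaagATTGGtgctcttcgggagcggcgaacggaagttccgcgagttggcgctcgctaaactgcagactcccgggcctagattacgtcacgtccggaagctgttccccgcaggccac

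The other motifs were also searched on both strands, and all but CCAAT were in windows of fewer genes than the E-box. CGCATGCG, the palindromic core of the sequence bound by nuclear respiratory factor NRF1, was in windows of Ctps and Shmt2, 5.88% of 34 against 2.07%. TTTCCCGC, of the E2F kind, was in those of Ppat and Prps2, 5.88% against 1.24%. CCGGAAGT, of the ETS kind, was in that of Gart, 2.94% against 4.31%. CCAAT was in 13 windows, 38.2% against 41.1%, and no matches of different motifs overlapped within these windows. A match is a run of letters and not a bound site, and these counts of 1 to 5 genes carry no test. The Ctps and Shmt2 stretches before the start, 64 bases before it in Ctps and 18 in Shmt2, are shown because both genes hold the same core, with the motif in capitals. Ctps had another match 32 bases after the start.
Ctps, chr4:120570323-120570350, minus strand: agacgtcccgCGCATGCGcgccctagcc
Shmt2, chr10:127522445-127522472, minus strand: cccagtactgCGCATGCGcagggaacgc

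The enzymes that border these pathways were read from a second list of 63 genes, of which 61 matched. In both libraries 46 of them had 1 TPM or more, against 45.6% of protein-coding genes, and 28 had 10 TPM or more, against 26.1%. The median of the 61 genes was 9.94 TPM. In both libraries 10 had 0 counts, namely Aldh1l2, Folr1, Folr2, Gldc, Ampd1, Upp1, Cda, Dpyd, Dpys and Upb1, where the limit that a count of 0 allows was 0.0741 CPM for replicate 1 and 0.0841 CPM for replicate 2. These include 3 of the enzymes that break down uracil and thymine (Dpyd, Dpys and Upb1), the folate receptors and the glycine decarboxylase Gldc. Such limits cover counting error only. A level of 0 TPM in both libraries was common, since such genes shared rank 12334 from the top among 21474 protein-coding genes.

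Ribonucleotide reductase, which makes deoxynucleotides from ribonucleotides, was high for the S-phase subunits. Rrm2 had 77.2 and 63.3 TPM (70.2 ± 9.86) and Rrm1 72.9 and 55.0 TPM (64.0 ± 12.6). The alternative small subunit Rrm2b had 1.81 and 3.17 TPM (2.49 ± 0.962). Tyms, which methylates deoxyuridine monophosphate at the cost of folate, had 46.5 and 46.7 TPM (46.6 ± 0.120). Mtr, methionine synthase, had 13.3 and 19.0 TPM (16.2 ± 4.04). Tyms was below Dut and Dtymk, the genes for the steps on either side of it, and its coding transcripts had 10.2 and 10.6 TPM.

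Phgdh, the first enzyme of serine synthesis, had 89.8 and 101 TPM (95.3 ± 7.77), above both Shmt genes that use serine. Psat1, the next enzyme, had 45.6 and 44.2 TPM (44.9 ± 0.948). Dld, the dehydrogenase shared by glycine cleavage and other complexes, had 39.1 and 43.5 TPM (41.3 ± 3.08). Gldc, the decarboxylase of glycine cleavage, was at 0 in both libraries, and Amt, its aminomethyltransferase, at 0.09 and 0.34 TPM. The reduced folate carrier Slc19a1 had 20.5 and 24.5 TPM (22.5 ± 2.77), whereas the folate receptors were at 0. Fpgs, which traps folate in cells as polyglutamate, had 16.2 and 11.7 TPM (13.9 ± 3.15), and Ggh, which reverses this, 10.4 and 10.8 TPM (10.6 ± 0.262). Of mitochondrial folate genes outside the 36, Mtfmt was at 8.57 and 17.2 TPM, the folate carrier Slc25a32 at 7.08 and 6.19, and Aldh1l1, a cytosolic enzyme listed with them, at 4.36 and 1.94. Mthfd2l, the close relative of Mthfd2, had 0.59 and 0.57 TPM and was below Mthfd2 in both libraries.

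In purine salvage and breakdown, Ampd2, a deaminase of adenosine monophosphate, had 81.6 and 66.2 TPM (73.9 ± 10.9), with 34.9 and 36.7 TPM on coding transcripts, while its muscle relative Ampd1 was at 0. Adk, adenosine kinase, had 26.2 and 21.9 TPM (24.03 ± 3.08), and Gda, guanine deaminase, 25.6 and 21.7 TPM (23.6 ± 2.74). Of pyrimidine salvage genes, Uckl1 had 61.4 and 56.7 TPM (59.0 ± 3.32), Uck1 18.0 and 21.1 TPM (19.6 ± 2.14), and Uprt 10.8 and 9.03 TPM (9.90 ± 1.23). Most of Uckl1 was on transcripts not annotated as coding, and its coding transcripts had 3.26 and 13.8 TPM. Uck2 was above its relatives Uckl1 and Uck1 in each library. Among other kinases, Ak6 had 118 and 134 TPM (126 ± 11.4) and Nme4, a mitochondrial diphosphate kinase, 37.3 and 35.3 TPM (36.3 ± 1.41). Itpa, which removes inosine triphosphate, had 43.2 and 38.7 TPM (41.0 ± 3.16), and Prpsap1, which associates with the Prps enzymes, 39.9 and 38.3 TPM (39.1 ± 1.15), of which 10.9 and 20.97 TPM were on coding transcripts. Slc29a1, an equilibrative nucleoside transporter, had 29.0 and 51.3 TPM (40.2 ± 15.7).

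Of the 47 bordering genes with 1 TPM or more on average, 1 was over 2-fold apart on the log2(TPM + 1) scale. Over all protein-coding genes at that level 7.52% were. The bordering gene was Slc46a1, the proton-coupled folate transporter, with 0 counts in replicate 1 and 45 in replicate 2. Without the added 1, other bordering genes also passed 2-fold in TPM, among them Mtfmt at 2.01-fold and Aldh1l1 at 2.25-fold. The median difference of the 47 genes was -0.04, close to the 0.04 of all protein-coding genes with 1 TPM or more and of the other sign.

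**Figure D5:**
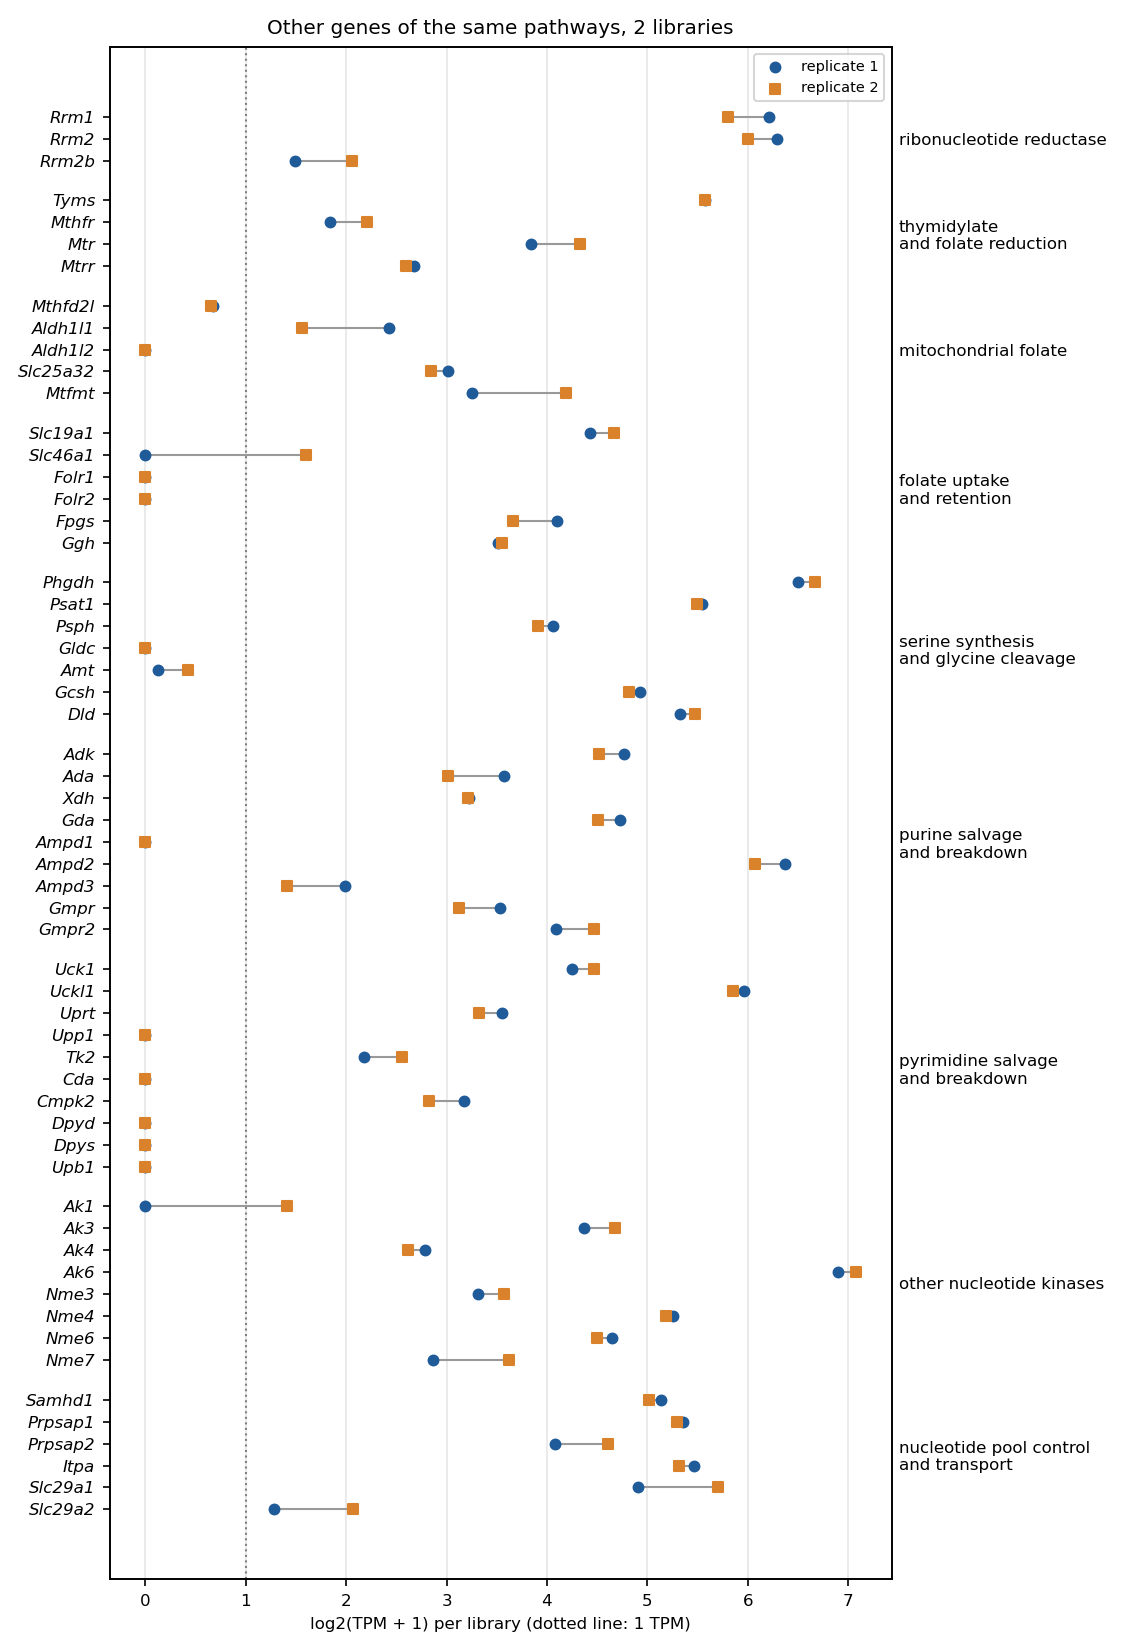
Level of 58 of the 61 bordering genes as log2(TPM + 1), with replicate 1 as circles and replicate 2 as squares, grouped by role, and a dotted line at 1 TPM. Ak6 and Phgdh lie highest, 10 genes lie at 0 in both libraries, and Slc46a1 and Ak1 lie at 0 in replicate 1 alone.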

How the data were processed

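Each library had a gene table and a transcript table. The expected counts (estimated counts), TPM, FPKM and percent of a gene's TPM per transcript are the authors' deposited values, made from transcriptome alignments. Text notes deposited beside the tables name the assembly mm10 and the annotation M4. Aligner, quantification tool and strand setting were not given in the sources used here. Symbols, spans and transcript types came from GENCODE M21, by identifier without version.

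Levels are deposited TPM, as mean ± SD over 2 libraries. Differences are log2(TPM + 1), with a pseudocount of 1, which understates ratios of low genes, among genes with 1 TPM or more on average, and a gene over 2-fold apart was counted. No test was run, since there is 1 group. Depth was 40509954 and 35675702 expected counts, and 3 counts equal 0.0741 and 0.0841 CPM. The code of the fold rule was tested on simulated data, which bears on the code alone.

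Alternatives were FPKM, CPM, another pseudocount and filters, TPM rescaled without 6 abundant RNA genes and the spike-ins (44.5% and 42.8% of TPM), edgeR 4.0.16 TMM and DESeq2 1.42.0 size factors on expected counts rounded to whole numbers (R 4.3.3), spike-in scaling, and coding transcripts only, chosen after seeing the data. Other steps used Python 3.11.15, numpy 2.4.6, pandas 2.3.3 and matplotlib 3.10.9.

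All 36 genes are named, with the 3 highest bordering genes of each role, those at 0 (3 genes of that list enter its counts but are not reported here), the genes whose leading transcript changed and those of lowest leading share. The other bordering genes named, Amt, Mthfd2l, Slc46a1 and Ak1, were chosen after their values were seen. Members and lists were chosen with earlier results of these data known. Promoter windows came from RefSeq, and the NRF1 core was shortened after a longer form had been searched.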

Additional observations from a re-analysis of the deposited data

How the results depend on the processing

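The counts of genes at 1 TPM and at 10 TPM or more, of pairs in the same order and of shared leading transcripts stayed within 1.5 times under every alternative run for them. The median level of the 36 genes, 34.2 TPM, was 25.0 in FPKM, 60.7 in rescaled TPM, 66.1 in CPM and 31.2 on coding transcripts, and from 35.6 to 36.8 in single libraries. The count over 2-fold apart, 0, became 1 with rescaled TPM (Mthfd2, -1.004), 7 with spike-in scaling (Atic, Impdh1, Guk1, Dck, Uck2, Shmt2 and Mthfd1) and 2 on coding transcripts. The median log2 difference, 0.11, was -0.0020 with TMM, -0.0031 with DESeq2 size factors and 0.71 with spike-in scaling. In CPM the mean log2 ratio reversed for Prps1 to Prps2 (-0.32), Adss to Adssl1 (0.48) and Ctps to Ctps2 (0.051). CPM is not scaled per length, and the cause of the other shifts was not tested. No paired analysis was possible because there is 1 group. Leaving out a library gives no difference between libraries and no order shared by them.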
